A study of Mus musculus with 94 samples.

Results

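The 10 genes described here encode the actin cytoskeleton and the non-muscle contractile apparatus. They are the cytoplasmic actins *Actb* and *Actg1*, the tropomyosins *Tpm1*, *Tpm3* and *Tpm4*, the myosin light chains *Myl6*, *Myl9* and *Myl12a*, the calponin *Cnn3* and the transgelin *Tagln2*. They were chosen by name, and all 10 of 10 had a row among the 16069 genes of the table. They were examined as the contractile base that perivascular adipose tissue-derived stem cells (PV-ADSCs) carry before any smooth muscle differentiation, so the cells had not been put through a differentiation protocol and no cells that had been are compared.

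The cells came from the fat around the thoracic aorta of 8-week c57/bl mice and were sorted without culture as CD144-/CD45-/CD29+/Sca1+ single cells. The series describes 94 cells of this single condition, and 85 of them have values. The labels tie no cell to an animal, so the cells together count as 1 sample, and no test or p value was computed between cells. SDs are over cells of this sample and are not errors between animals.

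Cells were divided by *Dcn*, the gene of the matrix proteoglycan decorin. The 58 cells with a *Dcn* value of at least 1000 are called stromal cells, and the remaining 27 are called other cells. The 3 values closest below the limit were 88.2, 239 and 269.0, and the 3 closest above it were 6521, 11185 and 23960. *Dcn* was above 0 in all 85 cells, and its median in the other cells was 21.2. A gene at a few reads is therefore described apart from a gene at 100 reads or more.

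The division was checked with markers other than *Dcn*. At least 3 of 9 stromal markers reached 100 reads in 57 of 58 stromal cells and in 0 of 27 other cells. At least 3 of 13 endothelial markers did so in 24 of 27 other cells and in 1 of 58 stromal cells. The summed level of the endothelial list ranged from 0 to 14275 reads per 1000000 recovered reads of the cell (CPM) in the other cells, with a median of 9416, and from 0 to 18174 in the stromal cells, with a median of 1.3997. *Cdh5*, the gene of the CD144 antigen that the sort was set to leave out, reached 100 reads in 20 of 27 other cells and in 0 of 58 stromal cells. Of the genes of the positive gates, *Ly6a* (Sca1) was above 0 in 73 of 85 cells and *Itgb1* (CD29) in 47. The groups also differed in the number of genes found. The median was 2813 genes in stromal cells and 1416 in other cells, whereas the recovered reads were similar, with medians of 2963854 and 2714449 and a range from 1146945 to 4776510 over all cells. Endothelial identity, number of genes and the absence of *Dcn* cannot be told apart in these groups.

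The library with the fewest reads, cell 50, goes against its stromal name. It had 1146945 reads and 850 genes, its *Dcn* value of 6521 rested on 69 reads, and none of the other stromal markers reached 100 reads. Counts of members are given with it and did not change without it. A further 5 cells, all among the other cells, also had fewer than 1000 genes.

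Actin filaments are built from actin monomers, and in non-muscle cells the beta and gamma forms are the main ones. Tropomyosins lie along the filament and set which proteins can bind it, while non-muscle myosin pulls on it once its regulatory light chain has been phosphorylated. Smooth muscle cells use the same scheme with their own actins, calponin and transgelin, and serum response factor drives many of these genes through a sequence element called the CArG box.

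The myosin regulatory light chains *Myl12a* and *Myl12b* are near-copies, which bears on every value of *Myl12a*. The first 90 of 519 coding bases of each are shown, from the GENCODE transcripts of build GRCm38, with the 4 bases that differ in this stretch in capitals.
Myl12a: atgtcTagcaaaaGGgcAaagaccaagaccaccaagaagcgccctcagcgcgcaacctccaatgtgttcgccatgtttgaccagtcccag
Myl12b: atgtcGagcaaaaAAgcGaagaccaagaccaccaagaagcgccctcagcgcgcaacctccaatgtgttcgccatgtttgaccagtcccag
Over the whole coding sequence, 501 of 519 bases were identical (96.5%). The genes are neighbours on the minus strand, *Myl12a* at chr17:70993656-71002878 and *Myl12b* at chr17:70973133-70990890. A second record of *Myl12b* in the same annotation, chr17:70974119-71002208, overlaps *Myl12a*. These positions are of GRCm38 and not of mm9, the build to which the authors aligned.

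The CArG box was searched because several of the 10 genes are textbook targets of serum response factor. In RefSeq promoters of GRCm38.p6, each from 250 bases before to 50 bases after an annotated start of the gene, the box was searched on both strands. It was present in 535 of 32851 promoters (1.63%). Promoters were held for 9 of 10 members, not for *Actb*, and 3 of these 11 promoters carried the box. They are shown with the box in capitals, 5′ to 3′ on the strand of the gene.
Myl9: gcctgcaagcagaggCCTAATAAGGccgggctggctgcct
Myl6: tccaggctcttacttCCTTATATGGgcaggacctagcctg
Actg1: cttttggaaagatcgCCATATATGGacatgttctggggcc
The stretches are chr2:156775288-156775327 on the plus strand for *Myl9*, chr10:128493035-128493074 on the minus strand for *Myl6* and chr11:120348561-120348600 on the minus strand for *Actg1*. *Myl6* had 2 promoters, 1 of them with the box, and its stretch lies within the annotated gene, chr10:128490860-128494145. A match describes the letters of the promoter and does not show that a factor binds there. The 3 genes were not alike in the cells, since *Actg1* and *Myl6* were found in most of them and *Myl9* in few.

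Over all cells, *Actb* and *Actg1* were at 100 reads or more in 76 and 69 of 85 cells, ahead of *Myl6* (67) and *Myl12a* (66), whereas *Myl6* was above 0 in the most cells (79). *Actb*, the beta actin gene, was above 0 in every stromal cell, with a lowest value of 151, a median of 2371 and a highest value of 10819. In the other cells its values ran from 0 to 9301 with a median of 1606, and 20 of 27 cells were above 0. At 100 reads or more, *Actb* was found in 98.3% of stromal cells (57 of 58, exact 95% interval from 90.8%) and in 70.4% of other cells (19 of 27, interval from 49.8 to 86.2%). The 2 sets of cells overlapped over most of their range, and 7 of the other cells were listed at 0 while no stromal cell was. The mean of log2(value + 1) was 11.12 ± 1.32 (SD, n = 58 cells) in stromal cells and 7.94 ± 5.22 (SD, n = 27 cells) in other cells. Over cells with at least 100 reads alone, these means were 11.17 ± 1.27 (SD, n = 57 cells) and 11.14 ± 1.59 (SD, n = 19 cells), so the level of *Actb* was alike where it was found.

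*Actg1*, the gamma actin gene, ran from 0 to 16395 in stromal cells with a median of 3174, and from 0 to 30817 in other cells with a median of 3396. It was above 0 in 54 of 58 stromal and 19 of 27 other cells. The medians were thus close, and the highest values lay in the other cells. The median balance of the actins was also close. *Actb* took a median of 46.9% of the reads of both actins in 57 stromal cells and 46.5% in 22 other cells that had at least 100 such reads. Its range was wide in both, from 7.43 to 100% and from 0 to 100%. Summed over cells, the balance was not alike. *Actb* and *Actg1* made up 19.3 and 24.9% of the reads of all members in stromal cells, and 10.6 and 26.6% in other cells. Reads of *Actg1* are less certain than those of *Actb*, because 56.7% of the windows of 50 bases along its transcript occur in transcripts of other genes, against 14.2% for *Actb*. The processed gene *Gm12715* shared 51.1% of the *Actg1* windows.

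**Figure D1:**
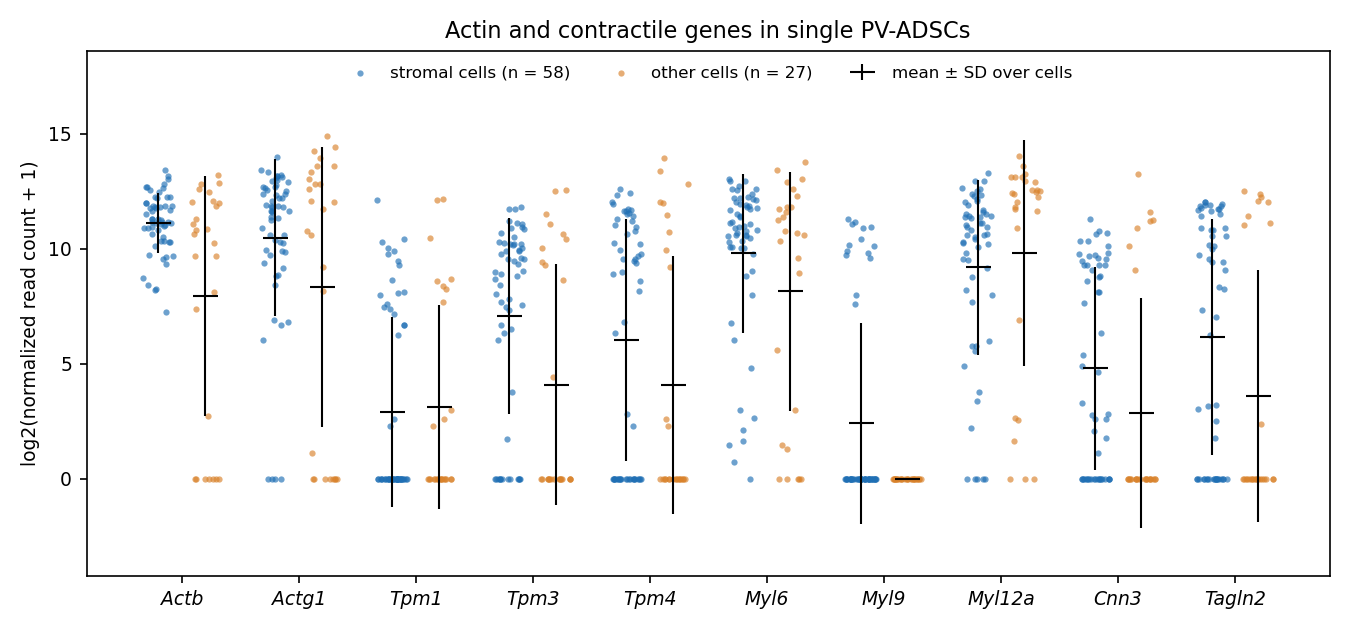
Each point is 1 cell, placed by gene on the horizontal axis and by log2(normalized read count + 1) on the vertical axis, for 58 stromal and 27 other cells, with the mean and SD over cells in black. *Actb* has no stromal cell at 0, *Myl9* has all 27 other cells at 0, and for *Myl12a* the median value of the other cells, 5301, lies above that of the stromal cells, 1573.

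The tropomyosins were found in fewer cells than the actins and differed among themselves. *Tpm3*, whose product is a tropomyosin of non-muscle cells and slow muscle, was above 0 in 45 of 58 stromal cells with a median of 493 and a highest value of 3579. It was above 0 in 11 of 27 other cells, which gave a median of 0 and a highest value of 6080. *Tpm4*, a mostly non-muscle form, was above 0 in 35 stromal cells (median 429, highest 6177) and in 11 other cells (median 0, highest 15765). *Tpm1*, which smooth and striated muscle use as well, was above 0 in 21 stromal and 11 other cells, with a median of 0 in both and highest values of 4394 and 4598. Of the tropomyosins, *Tpm3* and *Tpm4* were found in more of the stromal cells, whereas *Tpm1* was found in 36.2% of stromal cells (interval from 23.99 to 49.88%) and 40.7% of other cells (interval from 22.4 to 61.2%), which cannot be told apart at this number of cells.

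Counting the tropomyosins cell by cell at 100 reads, 6 of 58 stromal cells held none of the 3, 25 held 1, 16 held 2 and 11 held all 3. Of the other cells, 9 held none, 9 held 1, 9 held 2 and 0 held all 3. Among the 9 with none, 3 held no member at all at 100 reads. The other cells also had fewer genes, with a median of 1416 against 2813 in stromal cells. Sets of other genes were not counted in this way, so these counts are not read as a trait of the tropomyosins. A count of 0 of 27 allows a share of up to 11.1% when 3 cells are taken as the limit and up to 12.8% by the exact interval, and both cover counting error only. Between tropomyosin genes, 59.5 to 67.2% of the columns of the coding alignment were identical, columns with gaps included. Their longest coding sequences differ in length (981 bases for *Tpm1*, 858 for *Tpm3* and 747 for *Tpm4*), and the gaps lower these percentages. *Myl12a* and *Myl12b* are of equal length (96.5%), so the figures are not like for like. *Tpm3* still shares 62.4% of its windows with *Tpm3-rs7*, which differed in the same direction by 2.003 on the log2 scale, and reads of this pair may be divided between them. *Tpm2*, the fourth tropomyosin gene and one used by smooth muscle, was above 0 in 7 of 58 stromal and 0 of 27 other cells.

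Among the myosin light chains, *Myl6*, the essential light chain of non-muscle and smooth muscle myosin, was found about as widely as the actins. Its values ran from 0 to 8364 in stromal cells with a median of 1920, and from 0 to 13829 in other cells with a median of 1663. It was above 0 in 57 of 58 stromal and 22 of 27 other cells. At 100 reads these numbers became 49 and 18, since 8 stromal and 4 other cells had fewer reads than that. The groups overlapped almost completely.

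*Myl9*, the regulatory light chain that is abundant in smooth muscle, was the scarcest member. It was above 0 in 14 of 58 stromal cells (24.1%, interval from 13.9 to 37.2%) and in 0 of 27 other cells, for which the exact interval reaches 12.8%. Of all genes tested, 85.1% had the larger share in stromal cells. How many genes found in as few cells were also absent from the other cells was not counted. The count of 0 is therefore not read as a trait of *Myl9*. Where it was found it was not at trace level, since each of the 14 cells had at least 195 reads, with a median of 1127 and a highest value of 2480. All 14 of these cells held *Actb* at 100 reads, 13 held *Actg1*, 13 *Myl6*, 13 *Myl12a* and 9 *Tpm4*. *Tpm2* was at 100 reads in 0 of these 14 cells and in 4 of the 44 stromal cells without *Myl9*. These counts are too small to show whether the genes occur apart.

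*Myl12a*, a regulatory light chain of non-muscle myosin, went the other way. Its values in stromal cells ran from 0 to 10020 with a median of 1573, and in other cells from 0 to 16521 with a median of 5301. It was above 0 in 53 of 58 stromal and 24 of 27 other cells, and at 100 reads in 45 and 21. The shares were alike while the levels were not, with an upper quartile of 3045 in stromal and 7721 in other cells. The groups overlapped, since the highest stromal value lay above the upper quartile of the other cells. In CPM of recovered reads, the mean was 698 ± 711 (SD, n = 58 cells) in stromal cells and 2200 ± 1623 (SD, n = 27 cells) in other cells, a ratio of 3.15.

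Its near-copy *Myl12b* differed in the opposite direction. *Myl12b* reached 100 reads in 39 of 58 stromal and 7 of 27 other cells, with medians of 926 and 0, and its mean log2(value + 1) was 3.29 higher in stromal cells. Of the reads of both genes, *Myl12a* took a median of 59.4% in 49 stromal cells and 99.6% in 21 other cells with at least 100 such reads. The range was 0.327 to 100% in stromal and 44.998 to 100% in other cells. At 100 reads, 35 stromal cells held both genes, 10 *Myl12a* alone and 4 *Myl12b* alone, and the other cells held both in 7, *Myl12a* alone in 14 and *Myl12b* alone in 0. Since 29.2% of the windows of *Myl12a* occur in *Myl12b* and the program that counted reads is not given in the sources used here, how far reads of one were counted for the other was not tested.

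**Figure D2:**
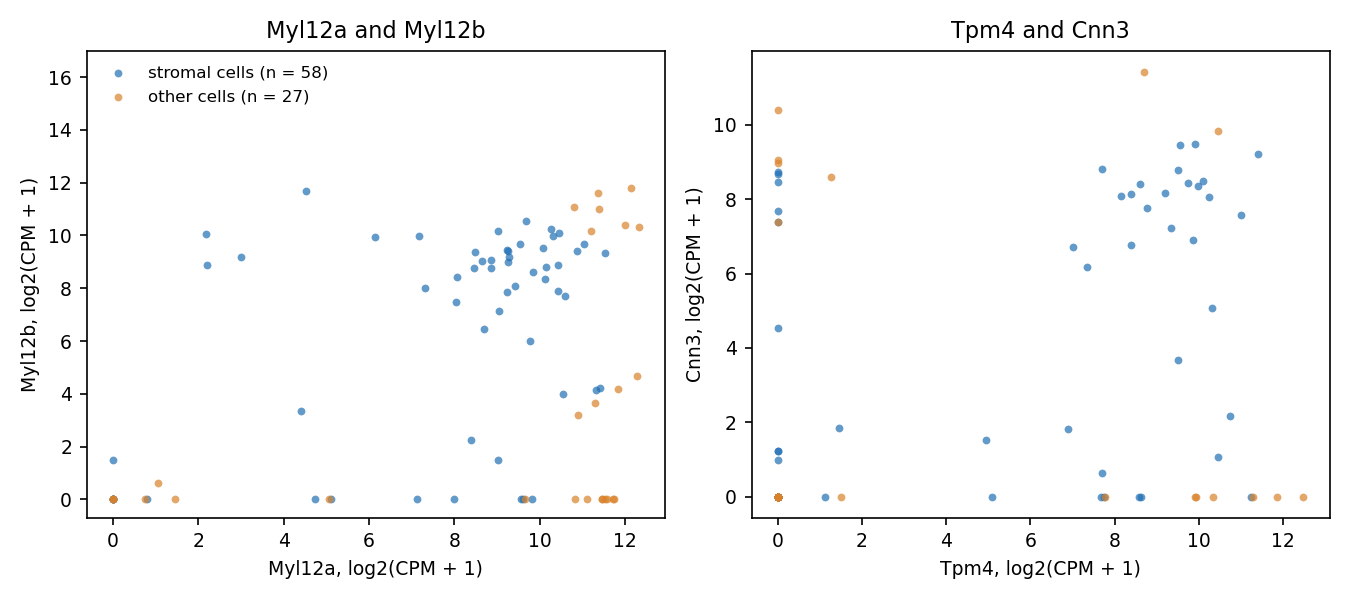
Each point is 1 cell placed by log2(CPM + 1) of recovered reads, *Myl12a* against *Myl12b* on the left and *Tpm4* against *Cnn3* on the right, for 58 stromal and 27 other cells. On the left, 14 other cells hold *Myl12a* at 100 reads without *Myl12b* at that level, and on the right 21 stromal cells hold both genes.

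*Cnn3*, the acidic calponin that is found outside muscle, and *Tagln2*, a non-muscle relative of the smooth muscle transgelin, both bind actin filaments. *Cnn3* was above 0 in 37 of 58 stromal cells with a median of 16.3 and a highest value of 2534, and in 7 of 27 other cells with a median of 0 and a highest value of 9647. A part of the stromal cells held traces of it, since 11 of the 37 had fewer than 100 reads. *Tagln2* was above 0 in 38 stromal cells (median 311, highest 4171) and 9 other cells (median 0, highest 5898). For both genes the stromal cells with the gene outnumbered the other cells with it, and the highest single values lay in other cells.

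**Figure D3:**
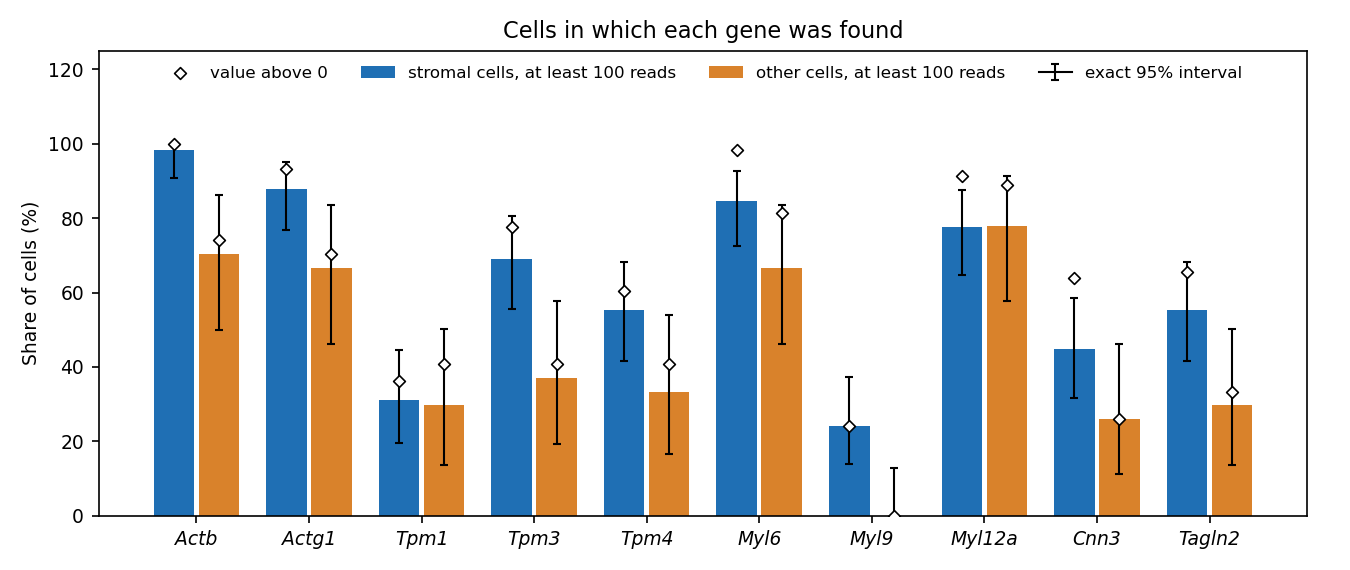
Bars give the percentage of cells in which each gene had at least 100 recovered reads, with exact 95% intervals, and diamonds give the percentage with a value above 0, for 58 stromal and 27 other cells. The stromal bar is the taller one for 9 of 10 genes, and for *Myl12a* the bars are level at 77.6 and 77.8%.

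Set side by side, a larger share of stromal than of other cells was above 0 for 9 of 10 members, *Tpm1* being the exception. The background was nearly the same, because 85.1% of the 11478 genes above 0 in at least 3 cells had the larger share in stromal cells. At 100 reads it was again 9 of 10, against 84.7% of the 8549 genes with 100 reads in at least 3 cells. *Myl12a* was then the exception (77.6 and 77.8%), and *Tpm1* was nearly level at 31.03 and 29.63%. More genes were found per stromal cell than per other cell, and the part of that difference in these shares was not tested.

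On the scale of log2(value + 1), 8 of 10 members were higher in stromal cells by at least 1, a fold of 2, and 0 were higher in other cells by as much. Over all 11478 genes, 35.6% were higher in stromal cells by at least 1 and 2.84% in other cells. Among genes above 0 in at least 10 cells, which all members were, the first share was 60.3%, so the count of members lies not far from that of other widely found genes. The median difference of the members was 2.04, and that of all genes tested was 0.64. *Actb* (3.18), *Tpm3* (2.99), *Tagln2* (2.57), *Myl9* (2.43) and *Actg1* (2.15) differed most, followed by *Cnn3* (1.94), *Tpm4* (1.93) and *Myl6* (1.66). *Tpm1* (-0.22) and *Myl12a* (-0.62) were lower in stromal cells by less than 1. The difference of *Myl12a* lay at percentile 4.77 of all genes tested, and that of *Actb* at percentile 92.8.

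On the log2(CPM + 1) scale of recovered reads, which removes the factors in the table, 8 of 10 members were again higher in stromal cells by at least 1 (29.1% of all genes) and 1, *Myl12a* at -1.03, was higher in other cells (2.51% of all genes). *Actb* stood at 2.77 and *Tpm3* at 2.40 on this scale. The share among genes above 0 in at least 10 cells was not counted in CPM, so the 8 members are not set apart from other widely found genes. When the 6 cells with fewer than 1000 genes were left out, 5 of 10 were higher in stromal cells by at least 1, against 34.1% of all genes and 56.9% of those above 0 in at least 10 cells under the same setting. They were *Actb* (2.13), *Tpm3* (2.18), *Myl9* (2.47), *Tagln2* (1.86) and *Cnn3* (1.28). *Tpm4* (0.91), *Actg1* (0.76) and *Myl6* (0.07) were then under 1, and *Myl12a* reached -2.02, where 4.07% of all genes were higher in other cells by at least 1. The calls of *Actg1*, *Tpm4* and *Myl6* therefore rested on these 6 cells, 5 of them other cells. Of those 5, 3 held no member at 100 reads and had 285 to 405 genes and at most 1 endothelial marker at 100 reads. With the other cells limited to the 24 that held 3 endothelial markers, *Actg1* stood at 1.16, *Tpm4* at 1.42, *Myl6* at 0.70 and *Myl12a* at -1.74.

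**Figure D4:**
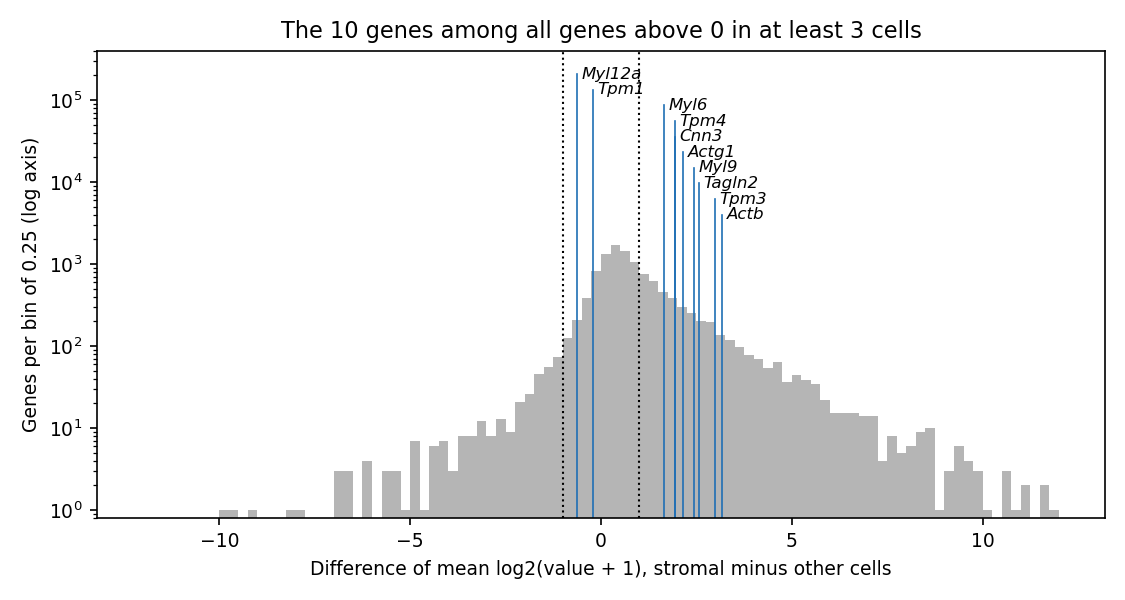
Grey bars count, on a log axis, the 11478 genes by their difference of mean log2(value + 1), stromal minus other cells, in bins of 0.25, with dotted lines at -1 and 1 and blue lines at the 10 genes (the height of a blue line carries no value). Of the 10, 8 lie to the right of 1, while *Tpm1* and *Myl12a* lie between the dotted lines.

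Levels were then compared among cells holding a gene. Among cells with at least 100 reads of the gene, the median value was higher in the other cells for 9 of 9 members (*Myl9* had no such other cell), as it was for 87.1% of the 976 genes with enough cells in both groups. In CPM it was higher in the other cells for 8 of 9 members, against 87.7% of genes. *Actb* was the exception, with 927 CPM in 57 stromal and 757 CPM in 19 other cells. *Myl12a* had the largest ratio of other to stromal cells in CPM, 4.12, whereas by value *Cnn3* had the largest (3.26) and *Myl12a* stood at 2.60. In CPM the median ratio over the 976 genes was 2.10. *Tagln2* stood at 2.69, *Tpm4* at 2.11, *Cnn3* at 1.86, *Tpm1* and *Tpm3* at 1.77, *Actg1* at 1.76 and *Myl6* at 1.01. *Actb* and *Myl6* were thus at about the same or a lower CPM in the other cells that held them and the other 7 members at a higher one, as most genes were.

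Counting all cells, the mean CPM was higher in other cells for 7 of 10 members, against 32% of the 11478 genes. That background includes genes found in few cells. The share among widely found genes alone was not computed, so the count is not read as a trait of the members. The members that were not were *Actb* (1097 ± 819 in stromal and 819 ± 959 in other cells, SD), *Myl9*, and *Myl6* (927 ± 767 and 925 ± 1151), whose means were level. Of the 8 members higher in stromal cells on the log2 scale, 5 (*Actg1*, *Tpm3*, *Tpm4*, *Cnn3* and *Tagln2*) thus had the higher mean CPM in other cells. The log scale weighs the cells at 0, while the mean weighs the few cells at high level.

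Per cell, the 10 genes took a median of 0.550% of all recovered reads in stromal cells, from 0.05002 to 1.15%, and 0.732% in other cells, from 3.56e-05 to 2.20%. In 20 of 27 other cells the share was above the stromal median. By contrast, the number of members at 100 reads was higher in stromal cells, with a median of 6.5 and a range of 2 to 10, than in other cells, with a median of 5 and a range of 0 to 8. The number of all genes above 0 per cell went the same way, with medians of 2813 and 1416. Only 1 cell, a stromal one, held all 10 members at 100 reads. Within the reads of all members, *Actg1* made up 24.9% in stromal and 26.6% in other cells, *Actb* 19.3 and 10.6%, *Myl6* 17.55 and 11.95%, and *Myl12a* 12.98 and 26.71%. The largest shifts in make-up were thus those of *Myl12a*, which had the larger share in other cells, and of *Actb*, which had the smaller one.

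Levels were compared between genes per kilobase of transcript, as mean CPM per kilobase. In stromal cells the order was *Actg1* (705 ± 655, SD over 58 cells), *Actb* (572 ± 426), *Myl6* (556 ± 460), *Myl12a* (360 ± 367), *Tagln2* (247 ± 332), *Tpm4* (202 ± 298), *Tpm3* (122 ± 139), *Myl9* (88.9 ± 195), *Cnn3* (66.9 ± 93.8) and *Tpm1* (25.9 ± 67.97). Each neighbouring pair in this order differed by less than the SD over cells. In the other cells *Myl12a* (1136 ± 838, SD over 27 cells) and *Actg1* (1094 ± 1351) led, followed by *Myl6* (554 ± 690) and *Actb* (427 ± 500). The order among the leading genes depended on the length used, since per kilobase of coding sequence *Myl6* and *Myl12a* came before the actins in stromal cells.

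Most pairs of members had a low rank correlation over the stromal cells. Of 45 pairs, 3 had a Spearman rho of at least 0.3 in size, and the median was 0.09. Pairs of other genes were not counted, so whether the members differ from them in this is not known. *Actb* and *Actg1* had the highest rho (0.49, and 0.44 in CPM, n = 58 cells), followed by *Tpm4* and *Cnn3* (0.48, and 0.48 in CPM) and by *Actg1* and *Tpm1* (0.36). For *Tpm4* and *Cnn3*, 21 stromal cells held both at 100 reads, 11 *Tpm4* alone, 5 *Cnn3* alone and 21 neither. Both genes also had higher values in stromal cells with more genes, with rho of 0.49 and 0.40 to the number of genes, and the part of this in the pair was not tested. In the other cells that pair had a rho of -0.01.

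Over the 27 other cells, 12 of 36 pairs reached 0.3 and the median was 0.19. The counts of pairs are not compared between the groups, since rho scatters more over 27 than over 58 cells. Here too, pairs of other genes were not counted. *Actb* had a rho of 0.56 with *Myl12a* and of 0.50 with *Cnn3*, and *Actb* and *Actg1* again had 0.47. These cells span from 285 to 2278 genes, and several members followed that number, with rho of 0.64 for *Tagln2*, 0.53 for *Myl6* and 0.51 for *Tpm1*. All these values describe cells that share a sort and a sample, and *Actb* and *Actg1* share the factor by which the table scales their group of genes, as do *Myl6* and *Cnn3*, and *Myl12a* and *Tagln2*.

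**Figure D5:**
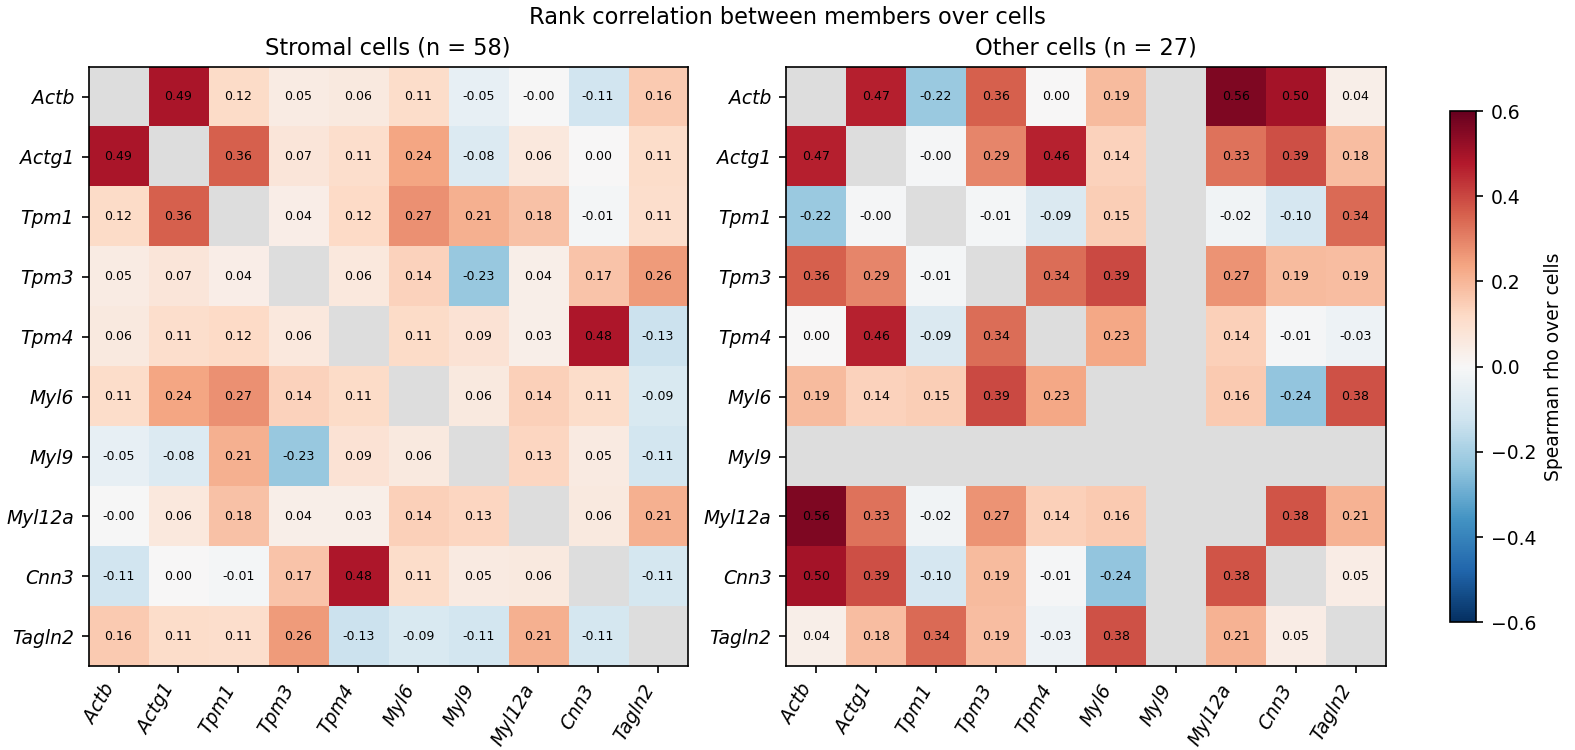
Each square gives Spearman's rho of a pair of genes over 58 stromal cells (left) or 27 other cells (right), with the colour scale from -0.6 to 0.6 and grey where no value exists. On the left *Actb* with *Actg1* (0.49) and *Tpm4* with *Cnn3* (0.48) have the highest values, and on the right *Myl9* has no values above 0.

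The genes whose pattern was most like the mean of the members were sought among genes above 0 in at least 50% of the cells of a group. Over the stromal cells, these were *Cd81* (rho of 0.56), *Gm21399* (0.53) and *H3f3a-ps2* (0.53) of 1656 genes. Over the other cells, they were *Eng* (0.73), *Gm37486* (0.70) and *Zfp36* (0.67) of 402 genes. *Cd81* encodes a tetraspanin of the cell surface and *Eng* the TGF-β co-receptor endoglin, a gene of endothelial cells. These are the highest of many values. Several members also followed the number of genes per cell in the other cells, and its part in these values was not tested.

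Of 45 actin-binding genes tested, 26 were higher in stromal cells (57.8%) and 4 in other cells (8.89%) by at least 1, with a median of 1.58. The first share is close to the 60.3% of all genes above 0 in at least 10 cells and above the 35.6% of all genes tested. The second stands against 3.69 and 2.84% of the same sets and rests on 4 genes. Some of the 45 were above 0 in fewer than 10 cells, so neither background matches the list. No difference from other genes is drawn from these shares. The largest differences were those of *Gsn* (9.996), the severing protein gelsolin, *Marcks* (6.48), which ties actin to the membrane, *Dstn* (5.89), the depolymerising factor destrin, and *Tmsb10* (5.19), a binder of actin monomers. The 4 in the other direction were *Tmod3* (-1.996), which caps filament ends, the cofilin gene *Cfl1* (-1.65), *Arpc3* (-1.29), a subunit of the branching complex Arp2/3, and *Vasp* (-1.11), which promotes filament elongation. The last pair was named after its values were seen.

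Of 8 genes tested that encode serum response factor, its co-factors or their targets, 3 were higher in stromal cells by at least 1 and 0 in other cells. The share of 37.5% is near the 35.6% of all genes tested. The 3 genes were *Ctgf* (4.05), *Fhl1* (3.14) and *Tgfb1i1* (2.04), and *Cyr61* stood at 0.99. *Csrp1* (0.16) and the co-factor gene *Mkl1* (0.31) had the smallest differences. *Ctgf* was above 0 in 31 of 58 stromal and 3 of 27 other cells.

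Of 12 smooth muscle markers, 6 had values, and each was found in few cells. At least 1 of the 6 reached 100 reads in 15 of 58 stromal and 4 of 27 other cells, and no cell of either group held 3 of them at that level. *Synpo2* was above 0 in 5 of 58 stromal and 0 of 27 other cells, *Smtn* in 8 and 3, *Csrp1* in 4 and 2, *Mylk*, the kinase that phosphorylates the regulatory light chains, in 2 and 1, *Des* in 1 and 0, and *Lmod1* in 1 and 0. Of the 4 tested, 0 differed by at least 1. *Acta2*, *Actg2*, *Tagln*, *Cnn1*, *Myh11* and *Myocd* were not analysed here, so the defining smooth muscle genes do not enter this check. The 10 members were thus measured in cells of which none held several of the smooth muscle markers that were examined.

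Markers of pericytes were also sparse, and no cell held 3 at 100 reads. *Pdgfrb* was above 0 in 19 of 58 stromal cells and *Abcc9* in 10, both in 0 of 27 other cells, and they differed by 3.004 and 1.533. *Rgs5* (-1.24) and *Mcam* (-0.91) were each above 0 in 3 of 27 other cells and in 0 of 58 stromal cells. *Cspg4* was above 0 in 2 stromal cells, *Kcnj8* in 1 and *Notch3* in 1. Of the blood cell markers only 2 had values, *Cd68* in 2 and *Tyrobp* in 1 of the stromal cells. By contrast, all 12 endothelial genes tested were higher in other cells by at least 1, from *Tek* (-1.77) and *Tie1* (-2.57) to *Cldn5* (-6.79), *Cdh5* (-6.76), *Flt1* (-6.53) and *Egfl7* (-6.12). All 10 stromal genes were higher in stromal cells, *Dcn*, which chose the cells, included.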

How the data were processed

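Full-length cDNA libraries of single sorted cells were sequenced, 1 library a cell. The authors aligned the reads to mm9 with HISAT2 2.0.5 and used SAMtools 1.4 and StringTie 1.3.3, then selected cells and normalized values with scater. The program that counted reads is not given in the sources used here. The authors deposited a table of 85 cells, whose values are treated as a signal (normalized read counts). The remaining 9 cells described were not analysed here. Genes without a row were not analysed here.

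In each cell, 13 groups of genes were found to be whole reads multiplied by a factor of that group, from 0.0157 to 94.5, and the other genes were whole. Dividing by the factor recovered reads, with 0 of 144272 values farther than 0.001 reads from a whole number. This step was devised after the values were seen and was run on simulated data. The simulated factors were drawn from a narrower spread than those found, so the simulation does not cover the extreme factors. CPM are reads per 1000000 recovered reads of a cell. The mean of log2(value + 1) was compared between stromal and other cells, with a difference of 1 as the limit, over genes above 0 in at least 3 cells. Where a difference of the log2 scale is given, it is on the scale of value + 1, which understates low genes. Medians over cells with 100 reads needed 5 such cells in each group. The exact intervals follow Clopper and Pearson (95%), and limits for a count of 0 are 3 cells of the total, and both cover counting error only. PCR copies were not marked, so reads are not independent molecules.

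The members, gene lists (actin-binding, serum response factor, smooth muscle, pericyte, endothelial, stromal, blood) and alternatives were chosen with earlier results of these data known. Named genes were all members, up to 4 genes with the largest and 2 with the smallest difference of each list, all smooth muscle and pericyte genes with a row, the gate genes and the 3 genes most like the mean of the members. A further list is not reported here. The alternatives were detection at 10 and 100 reads, thinning of each cell to 1146945 reads, CPM, other pseudocounts, other limits of *Dcn*, cells under 1000 genes left out and other filters on genes. Comparisons within subsets of cells named by markers or reads, and levels among cells holding a gene, were added after the data were seen. Shared windows of 50 bases and coding identity used GENCODE transcripts. Python 3.11.15, numpy 2.4.6, pandas 2.3.3, scipy 1.17.1, Biopython 1.88 and matplotlib 3.10.9 were used. Clusters and doublets were not called.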

Additional observations from a re-analysis of the deposited data

How the results depend on the processing

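The counts of members with a difference of at least 1 were 8 higher in stromal cells and 0 in other cells. On the CPM scale 1 was higher in other cells, with cells under 1000 genes left out 5 were higher in stromal cells and 1 in other cells, and with the other cells limited to those with 3 endothelial markers 7 and 1. In each case the 1 gene was *Myl12a*. Of these, the last was added after seeing the data. Among genes above 0 in at least 10 cells, 60.3% of all genes were higher in stromal cells, against 35.6% in the main background. A pseudocount of 10 left 7 members, without *Cnn3* (0.91). Over all 10 settings, *Actb* ranged from 2.13 to 4.045, *Tpm3* from 1.81 to 4.201, *Myl12a* from -2.02 to -0.11 and *Tpm1* from -0.77 to 0.13, whose sign was positive in 1 of 10 settings. Without cell 50, or without the stromal cell that holds 3 endothelial markers, the counts were 8 and 0. The cause of these changes was not tested. Shares over all genes were not counted for the pseudocount of 10, the limit to cells with endothelial markers or the removal of single cells. The counts of members under these settings are therefore not read as a trait of the members. Shares at 100 reads were lower for *Myl6* (84.5% of stromal cells), *Myl12a* (77.6%) and *Cnn3* (44.8%), and ranks by coding length moved as stated above. No paired analysis was possible because all cells are 1 sample of 1 condition and the result comes from no test. The number of cells limits each share, and no value speaks for variation between animals.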

Other observations

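Some actin regulators outside the 10 genes behaved differently from one another, and these were picked after their values were seen. The thymosin gene *Tmsb4x*, whose product holds actin monomers, was above 0 in 58 of 58 stromal and 26 of 27 other cells, with medians of 8869 and 25750. Its relative *Tmsb10* was above 0 in 58 of 58 stromal and 14 of 27 other cells, with medians of 292 and 2.37. On the log2 scale the difference was -0.66 for *Tmsb4x* and 5.19 for *Tmsb10*. Among subunits of the Arp2/3 complex, which branches filaments, the differences were 3.004 for *Arpc1a*, 2.46 for *Arpc2*, 2.08 for *Actr2*, 1.68 for *Arpc5*, 1.58 for *Arpc1b*, 0.58 for *Actr3*, -0.04 for *Arpc4* and -1.29 for *Arpc3*. The number of genes per cell moves with the groups, and its part in these values was not tested.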
